A study of Mus musculus with 10 samples.

Results

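The Zfp genes are the mouse genes whose symbol is Zfp followed by a number, most of which encode zinc finger proteins. Of 9401 named genes measured on Illumina bead arrays of mouse embryonic stem cells (mESCs), 210 were Zfp genes. Members were taken by symbol, leaving out Zfp42 (Rex1), and for each a probe was detected (p-value up to 0.05) on 5 or more of the 10 arrays. A gene with several such probes was represented by its brightest. All levels are log2 signals after quantile normalization, and a difference of 1 on this scale is a doubling of the signal. The filter passed a probe through either day: 175 members were detected on all 10 arrays, 20 on all d0 arrays but fewer at d3, 8 on all d3 arrays but fewer at d0, and 7 on fewer than all arrays of both days. Probes that failed the filter carried no gene name here, so Zfp genes below it were not counted.

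The arrays covered 5 G-CCE lines, each at d3, after 3 days without leukemia inhibitory factor (LIF), and at d0, in medium with LIF, with 1 array for each line and day. The line MMTR KD carried pLV-TH-MMTR/Dmap1_shRNA, a lentiviral short hairpin RNA against MMTR (Dmap1, a subunit of the Tip60-p400 chromatin complex), and came from isolated EGFP-positive clones. The lines MMTR-F, MMTR-C and MMTR-N were transfected with pcDNA3-Flag constructs of full-length MMTR, its C-terminal part or its N-terminal part and were selected with puromycin, and the WT line was not transfected. The series record speaks of duplicated profiles, but each line and day had 1 column, so that a difference between 2 arrays has no replicate error.

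The Dmap1 signal did not follow all of the line names. It was 10.38, 10.18, 12.003 and 10.34 at d3 in the arrays labelled MMTR KD and those labelled MMTR-F, MMTR-C and MMTR-N, against 10.42 in WT. At d0 it was 10.78, 10.48, 12.005 and 10.52 in the same order, against 10.59 in WT, so only the arrays labelled MMTR-C stood above WT on both days. Which part of the transcript its probe reads is not given in the sources used here. The line names below are those of the labels. All 7 mESC markers examined were detected on every array, while 1 of 6 fibroblast markers (Thy1) and 1 of 5 macrophage markers (Csf1r) were measured. Median raw signals were 337 to 347 at d3 and 218 to 244 at d0, and 194 to 204 members were detected per array at d3, against 204 to 205 at d0. Whether the arrays of the 2 days were run together is not given in the sources used here, and a run effect and the day cannot be told apart.

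Most Zfp genes encode proteins with tandem C2H2 zinc fingers, in which a pair of cysteines and a pair of histidines hold a zinc ion and each finger reads a few bases of DNA. Many carry a KRAB domain, which recruits the corepressor Trim28 (KAP1) and, through it, the H3K9 methyltransferase Setdb1. In mESCs KRAB zinc finger proteins are known for silencing retroelements and for protecting imprinted loci. The family has grown by repeated local duplication, so many members lie side by side in the genome and resemble one another in sequence. The symbol rule also takes in the Zfp36 group, whose CCCH zinc fingers bind AU-rich elements of mRNA and promote its decay.

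Promoter windows were taken from RefSeq (assembly GRCm38.p6), from 250 bases before to 50 bases after a gene's start. They were found for 171 of the 210 members, with 210 windows in all. The first set is shown because Zfp979 had the largest fall of all members at d3, and Zfp985 and Zfp987 are its close relatives on chromosome 4. The capitals mark GGAAGT, the core of an ETS-type site. The windows are chr4:147642459-147642758 (minus strand) for Zfp979, chr4:147553027-147553326 (plus strand) for Zfp985 and chr4:146097062-146097361 (plus strand) for Zfp987.
Zfp979: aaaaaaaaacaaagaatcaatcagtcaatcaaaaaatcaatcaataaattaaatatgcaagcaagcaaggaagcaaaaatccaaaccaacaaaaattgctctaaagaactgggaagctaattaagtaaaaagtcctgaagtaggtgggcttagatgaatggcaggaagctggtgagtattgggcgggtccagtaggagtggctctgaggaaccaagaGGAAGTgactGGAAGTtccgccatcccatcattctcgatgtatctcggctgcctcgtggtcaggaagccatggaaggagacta
Zfp985: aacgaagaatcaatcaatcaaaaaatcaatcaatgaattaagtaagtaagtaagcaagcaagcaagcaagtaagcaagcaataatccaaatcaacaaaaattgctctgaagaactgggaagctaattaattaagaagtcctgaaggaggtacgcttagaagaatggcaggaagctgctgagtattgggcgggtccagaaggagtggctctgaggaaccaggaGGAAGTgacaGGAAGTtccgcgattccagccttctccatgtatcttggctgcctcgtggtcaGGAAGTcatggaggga
Zfp987: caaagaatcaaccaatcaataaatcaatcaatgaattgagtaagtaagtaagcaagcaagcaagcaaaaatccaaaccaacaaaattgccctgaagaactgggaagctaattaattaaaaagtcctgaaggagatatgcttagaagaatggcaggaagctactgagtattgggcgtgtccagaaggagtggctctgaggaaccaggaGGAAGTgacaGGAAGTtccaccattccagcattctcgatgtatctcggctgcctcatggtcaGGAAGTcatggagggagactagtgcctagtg
The aligned parts of these windows were 91.5% identical between Zfp979 and Zfp985, 90.9% between Zfp979 and Zfp987 and 94.0% between Zfp985 and Zfp987. GGAAGT occurred 2 times in the first window and 3 times in each of the other two.

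The next pair is shown because these genes had the second and the third largest falls. The Zfp296 window, chr7:19577037-19577336 (plus strand), has ATTTGCAT, the octamer bound by POU factors, and CACGTG, the E-box, in capitals. The Zfp819 window, chr7:43606919-43607218 (plus strand), has CACGTG in capitals.
Zfp296: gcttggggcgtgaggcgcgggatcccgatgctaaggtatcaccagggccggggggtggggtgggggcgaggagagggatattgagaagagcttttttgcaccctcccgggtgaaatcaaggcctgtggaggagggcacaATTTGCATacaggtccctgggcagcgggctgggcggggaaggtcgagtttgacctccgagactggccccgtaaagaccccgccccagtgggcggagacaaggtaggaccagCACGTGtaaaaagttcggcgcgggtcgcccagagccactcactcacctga
Zfp819: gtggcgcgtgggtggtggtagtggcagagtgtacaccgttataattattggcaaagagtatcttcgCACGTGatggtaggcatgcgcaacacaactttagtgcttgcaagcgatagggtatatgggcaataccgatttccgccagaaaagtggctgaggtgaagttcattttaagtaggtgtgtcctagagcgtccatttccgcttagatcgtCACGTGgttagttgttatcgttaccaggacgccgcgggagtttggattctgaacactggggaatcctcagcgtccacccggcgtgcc

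The last set holds 3 neighbours from chromosome 8 that were low in MMTR KD, with CCAAT (the CCAAT box) in capitals. They are chr8:69625499-69625798 (minus strand) for Zfp868, which has a second window not shown, chr8:69716853-69717152 (minus strand) for Zfp869 and chr8:69774862-69775161 (minus strand) for Zfp866.
Zfp868: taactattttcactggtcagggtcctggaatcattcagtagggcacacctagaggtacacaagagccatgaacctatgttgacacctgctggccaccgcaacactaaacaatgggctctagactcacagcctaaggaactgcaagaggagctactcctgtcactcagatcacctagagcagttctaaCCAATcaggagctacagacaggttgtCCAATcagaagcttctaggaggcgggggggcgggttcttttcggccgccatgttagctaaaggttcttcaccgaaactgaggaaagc
Zfp869: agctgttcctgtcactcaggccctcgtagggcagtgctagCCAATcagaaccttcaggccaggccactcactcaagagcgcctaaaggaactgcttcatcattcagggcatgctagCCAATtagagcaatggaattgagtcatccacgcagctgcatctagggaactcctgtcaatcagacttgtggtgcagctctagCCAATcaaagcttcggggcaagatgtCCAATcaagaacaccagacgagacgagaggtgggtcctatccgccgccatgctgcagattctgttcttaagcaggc
Zfp866: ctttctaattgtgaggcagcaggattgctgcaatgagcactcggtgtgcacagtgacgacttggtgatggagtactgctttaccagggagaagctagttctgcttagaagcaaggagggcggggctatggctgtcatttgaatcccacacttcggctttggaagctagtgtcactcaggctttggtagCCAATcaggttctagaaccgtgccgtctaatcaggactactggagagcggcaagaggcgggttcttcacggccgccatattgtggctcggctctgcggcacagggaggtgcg
The aligned parts were 79.4% identical between Zfp868 and Zfp869, 74.7% between Zfp868 and Zfp866 and 77.4% between Zfp869 and Zfp866. The box occurred 2 times in the Zfp868 window, 4 times in that of Zfp869 and 1 time in that of Zfp866.

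Over all members, GGAAGT on either strand was found in 86 of the 210 windows (41.0%), against 23.8% of the 32851 windows of all 27025 genes in the table. CCAAT was found in 98 member windows (46.7%, against 37.4% of all windows), CACGTG in 15 (7.14%, against 7.15%) and ATTTGCAT in 5 (2.38%, against 1.74%). Read on the opposite strand, GGAAGT is ACTTCC and can share its last bases with CCAAT. The motifs and the genes shown were chosen after their values were seen, near-identical relatives each count in these shares, and a match is a description of the letters and not a measured binding site. The members had passed the detection filter in these cells, while the windows of all genes include genes that had not. The members were not set against windows of detected genes only, so these shares do not single out the family.

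Between d3 and d0, Zfp genes moved in both directions and about as often as other genes. Over the 5 lines, 50 of the 210 members rose, against 26.0% of all named genes, and 56 fell, against 25.3% (limma with line and day as terms, adjusted over all probes). The members that rose were 23.8% of the family and those that fell 26.7%. With a change of at least 0.5 on the log2 scale as well, 15 rose (9.02% of all genes did so) and 17 fell (7.64%). In 28 members every d3 array lay above every d0 array, as in 13.3% of all genes, and in 30 every d3 array lay below, as in 12.8%. The median change was -0.01 for the members with a standard deviation of 0.40, and 0.01 for the other 9191 genes with a standard deviation of 0.45. In RNA from whole cultures, fewer cells that express a gene and less RNA per cell cannot be told apart.

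**Figure D1:**
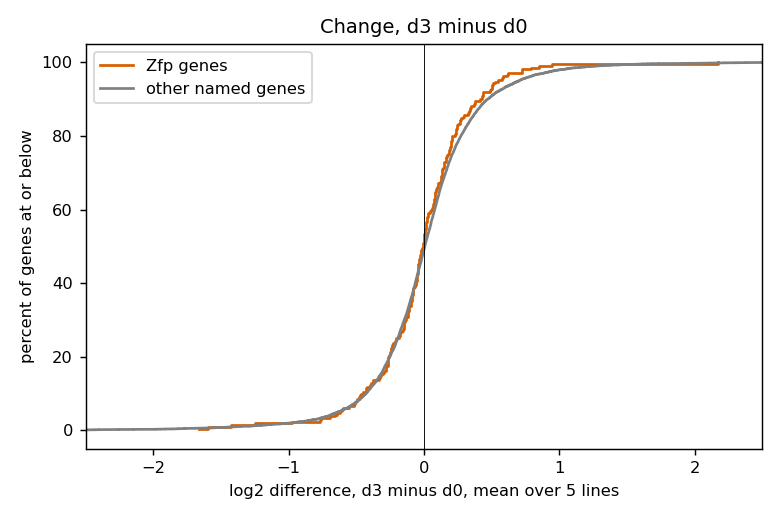
Cumulative percent of genes (vertical axis) at or below each log2 difference between d3 and d0 (horizontal axis, mean over 5 lines) for the 210 Zfp genes and the 9191 other named genes. The curves nearly coincide, with medians of -0.01 and 0.01.

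Members moved in both directions within single lines as well. With a difference of at least 0.5 between the d3 and the d0 array of 1 line, which has no test, 20 members were higher and 18 lower at d3 in MMTR KD, against 10.6% and 9.13% of all genes. In MMTR-F 12 were higher and 15 lower (8.51% and 7.50% of all genes), and in MMTR-C 24 and 23 (11.5% and 10.2%). In MMTR-N 13 were higher (11.4%) and 23 lower (9.49%), and in WT 20 (11.6%) and 18 (10.2%).

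Zfp608, a nuclear zinc finger protein known to hold down Rag gene expression in thymocytes, had the largest rise. Its signal at d3 was 10.47, 10.05, 10.81 and 10.08 in MMTR KD and the lines MMTR-F, MMTR-C and MMTR-N, against 10.95 in WT. At d0 it was 8.47, 7.94, 8.26 and 8.22 in the same lines, against 8.62 in WT, with the MMTR-F array below the detection limit. The days did not overlap, and the mean rise was 2.17 ± 0.10 on the log2 scale (SE, 5 lines, limma adjusted p = 1.1e-05). A second probe of the gene rose by 1.21. Under normexp background correction the rise was 3.28.

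Along with Zfp608, the following members make up the 10 largest rises with the same sign in 5 of 5 lines. Zfp362 rose by 0.94 (limma adjusted p = 0.00010), with 9.91 to 10.40 at d3 and 9.07 to 9.39 at d0. Zfp644, a partner of the H3K9 methyltransferases G9a and GLP, had signals of 11.04 to 11.52 at d3 and 10.44 to 10.63 at d0 and rose by 0.79 (adjusted p = 0.00024). Zfp36l3, an X-linked CCCH gene of rodents known from the placenta, rose by 0.85 (adjusted p = 0.00052). It was detected on 5 of 5 arrays at d3 and on 1 of 5 at d0, so its fitted change starts near the detection limit, and under normexp the rise was 1.69. Zfp467, linked to bone and fat cell fate, was detected on 5 of 5 arrays at d3 and 2 of 5 at d0. It rose by 0.61 (adjusted p = 0.00098), or by 1.27 under normexp.

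Zfp664, Zfp334, Zfp777, Zfp787 and Zfp523 complete this group, with rises of 0.72, 0.62, 0.59, 0.73 and 0.58 on the log2 scale. In each the d3 arrays lay above all d0 arrays. For Zfp787 the second probe gave 0.18, and for Zfp523 it gave -0.01 and did not pass the test. With the mean of their probes Zfp787 rose by 0.45 and Zfp523 by 0.28.

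Zfp979, a member of the gene cluster on chromosome 4, had the largest fall. Its signal at d3 was 11.23, 11.20, 10.77 and 11.07 in MMTR KD and the lines MMTR-F, MMTR-C and MMTR-N, against 10.74 in WT. At d0 it was 12.73, 12.50, 12.49 and 12.77 in the same lines, against 12.85 in WT. The lowest d0 array lay above the highest d3 array, the mean difference was -1.66 ± 0.11 (SE, 5 lines, limma adjusted p = 3.4e-05), and a second probe gave -1.47. The relatives whose promoters are printed above also fell: Zfp987 by 0.77 (adjusted p = 0.018) and Zfp985, named after its values were seen, by 0.62 (adjusted p = 0.0020). Zfp987 had 8.60 to 9.03 over the d3 arrays and differed widely among the d0 arrays, with 9.08 in both MMTR KD and MMTR-F and more in MMTR-C (9.69) and MMTR-N (10.03), against 10.11 in WT. Without the MMTR-C, MMTR-N or WT arrays its call was lost, with adjusted p-values of 0.056, 0.057 and 0.050. Since the genes of this cluster are alike, a probe of one may also read transcripts of another, which was not tested.

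Zfp296, a nuclear protein known to aid reprogramming to pluripotency, had 9.22, 9.55, 9.06 and 9.09 at d3 in MMTR KD and the lines MMTR-F, MMTR-C and MMTR-N, against 9.11 in WT. At d0 these were 10.79, 10.90, 11.09 and 10.26, against 10.99 in WT. All d0 arrays lay above all d3 arrays, with MMTR-N the lowest of them, and the difference was -1.59 ± 0.12 (SE, 5 lines, limma adjusted p = 6.4e-05). Its second probe gave -1.30.

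Zfp819, a KRAB protein of mESCs that binds Trim28 and is known to repress retroelements, fell by 1.42 ± 0.14 (SE, 5 lines, limma adjusted p = 0.00019). At d3 it had 8.79 in MMTR KD and 10, 9.10 and 9.75 in the lines MMTR-F, MMTR-C and MMTR-N, against 8.97 in WT. At d0 it had 10.27, 10.73, 10.62 and 11.22 in the same lines, against 10.89 in WT. The d3 arrays of MMTR-F and MMTR-N were the highest of that day and still lay below the lowest d0 array.

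Zfp36l1, a CCCH protein that binds AU-rich mRNAs, was bright on all arrays. Its signals were 13.24, 12.69, 12.48 and 12.37 at d3 in MMTR KD and the lines MMTR-F, MMTR-C and MMTR-N, against 12.33 in WT. At d0 they were 14.18, 14.01, 13.68 and 13.55, against 13.91 in WT. The days did not overlap (difference -1.25 ± 0.09, SE, 5 lines, limma adjusted p = 4.9e-05). Its other probes gave -1.59 and -0.42.

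Zfp473, whose human counterpart takes part in the 3′ end processing of histone pre-mRNA, fell by 0.98 (limma adjusted p = 3.5e-05), with 9.82 to 10.20 at d3 and 10.89 to 11.09 at d0. Zfp654 fell by 0.76, Zfp532 by 0.69 and Zfp423, a partner of EBF and SMAD factors in fat and nerve cell development, by 0.66 (by 0.99 under normexp). In these 3 genes too all d3 arrays lay below all d0 arrays. Zfp808 was detected on 0 of 5 arrays at d3 and 5 of 5 at d0, where it was at least 1.46-fold higher (adjusted p = 0.00017). This bound sets the mean of the d0 arrays against the detection limit of the d3 arrays.

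**Figure D2:**
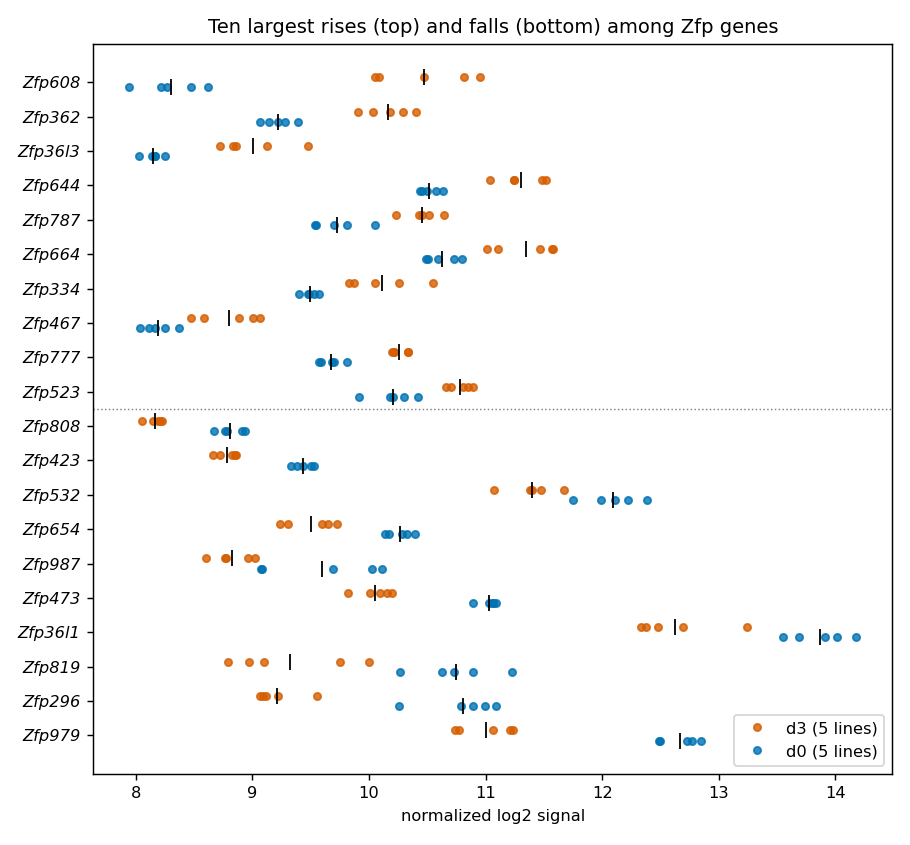
Normalized log2 signal (horizontal axis) of the 10 Zfp genes with the largest rises (above the dotted line) and the 10 with the largest falls (below it), with d3 in orange and d0 in blue, 1 point for each of 5 lines and a black bar at the mean. No gene's d3 and d0 points overlap, and Zfp608 and Zfp979 are the farthest apart.

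Among members with known roles in stem cells, imprinting or retroelement silencing, 9 of 18 listed genes were measured. None of them rose, against 26.0% of all named genes, and 3 fell, against 25.3%. The falls were Zfp296, Zfp322a by 0.30 (limma adjusted p = 0.0058) and Zfp459 by 0.38 (adjusted p = 0.036). The call of Zfp459 was lost without the arrays of MMTR KD, MMTR-N, MMTR-C or WT (adjusted p = 0.068, 0.084, 0.11 and 0.11). Under median scaling 5 of the 9 fell, with Zfp207 and Zfp131 added, against 32.2% of all named genes. Under normexp Zfp322a fell by 0.47. The brightest probes of the other 6 did not pass. Among these, Zfp281, a partner of Nanog, differed by 0.15 and Zfp207, which has been linked to spindle assembly and to mESC identity, by -0.05. Zfp809, which silences murine leukemia proviruses by reading their primer binding site, differed by -0.00, and Zfp568, a repressor of a placental Igf2 transcript, by 0.01. A second, dimmer probe was called lower at d3 in 3 of these genes, by 0.43 for Zfp281 (adjusted p = 0.0015), 0.61 for Zfp207 (adjusted p = 0.00013) and 0.41 for Zfp568 (adjusted p = 0.0022), so for these genes the result depends on the probe. With the mean of their probes Zfp207 and Zfp568 fell by 0.33 and 0.20, and 5 of the 9 genes passed as falls. Zfp131 and Zfp825 differed by -0.12 and -0.11. The median of the 9 was -0.11, against -0.01 for all members.

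Of 15 genes listed for roles in development, 10 were measured, of which 3 rose and 3 fell. Of all named genes 26.0% rose and 25.3% fell. Zfp608 and Zfp467 rose as above, and Zfp521, a regulator of B cell and neural development, rose by 0.43 (limma adjusted p = 0.011; 0.90 under normexp), with 8.45 to 9.07 at d3 and 8.14 to 8.27 at d0. Zfp423, Zfp704 (by 0.43) and Zfp516, an activator of brown fat genes (by 0.26), fell. Zfp516 fell by 0.55 under normexp and did not pass under median scaling (-0.09). Zfp365, Zfp335, Zfp219 and Zfp148 did not pass, with differences of 0.16, -0.09, 0.19 and -0.14. A second probe of Zfp365 was called at -0.23 (adjusted p = 0.042), while without the WT arrays the brightest passed as a rise of 0.34. Without the MMTR-N arrays Zfp148 passed as a fall (-0.19), and Zfp281 of the list above as a rise (0.25). Of 3 CCCH genes listed, Zfp36 (tristetraprolin) and Zfp36l1 were measured: Zfp36l1 fell, while Zfp36 differed by 0.38 and did not pass (adjusted p = 0.054), except when the MMTR KD arrays were left out (0.55, adjusted p = 0.0037).

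Of 16 genes listed for corepressors of KRAB zinc fingers and for related silencing factors, 14 were measured. Of these 1 rose, against 26.0% of all named genes, 5 fell, against 25.3%, and 8 did not pass, with a median of -0.13 against -0.01 for the Zfp genes. Trim28, which the KRAB domain binds, had 14.47, 14.38, 14.66 and 14.22 at d3 in MMTR KD and the lines MMTR-F, MMTR-C and MMTR-N, against 14.62 in WT. At d0 it had 15.11, 15.02, 15.20 and 14.79, against 15.30 in WT. The days did not overlap, and the difference was -0.61 (limma adjusted p = 7.6e-05). Smarcad1, a chromatin remodeler that binds Trim28, fell by 0.70, Uhrf1 by 0.32, Morc3 by 0.24 and Atrx by 0.19, while Cbx3 (HP1 gamma) rose by 0.28. Setdb1 differed by -0.07 and did not pass. These smaller changes depended on the arrays, the scaling and the probe. With the mean of a gene's probes Smarcad1 fell by 0.43, and Cbx3 did not pass (0.16, limma adjusted p = 0.11). Cbx3 lost its call without the arrays of MMTR KD, MMTR-C or WT, Atrx without those of MMTR KD, MMTR-C or MMTR-N, and Morc3 without those of MMTR KD or WT (adjusted p = 0.054 to 0.088), while Chd4 passed as a rise (0.21) without those of MMTR-N. Under median scaling 0 of the 14 rose and 10 fell, Setdb1 among them (-0.24), against 28.7% and 32.2% of all named genes. Of other zinc finger families, 6 of 25 Zbtb genes rose and 5 fell, and 5 of 13 Zscan and Zkscan genes rose and 3 fell. These counts too stand beside 26.0% and 25.3% of all named genes.

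By place in the genome, chromosome 7 held 50 of the 210 members, more than any other chromosome. There 9 members rose and 20 fell, against 161 and 167 of 676 other genes of the same chromosome. On chromosome 6 a run of 7 neighbours with gaps of at most 0.5 Mb (Zfp398, Zfp282, Zfp212, Zfp956, Zfp777, Zfp746 and Zfp467) had 5 rises and 0 falls, with a median of 0.33. Among all named genes 26.0% rose and 25.3% fell. Zfp282 rose by 0.43, Zfp212 by 0.33 and Zfp746 by 0.24, beside Zfp777 and Zfp467, whereas Zfp956 and Zfp398 differed by 0.07 and -0.11 and did not pass. With the mean of their probes Zfp212 and Zfp746 differed by 0.07 each and did not pass, and Zfp212 also missed without the arrays of MMTR-C or WT (adjusted p = 0.061 and 0.063). These groups were picked after their values were seen and carry no test.

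Probes of 1 gene did not always give the same picture. Of 71 members with more than 1 kept probe, 23 had probes of differing sign, and in 16 the brightest probe was called while another was not. In 9 the brightest was not called while another was: Zfp207, Zfp281, Zfp365, Zfp472, Zfp568, Zfp64, Zfp661, Zfp820 and Zfp868. For Zfp428, named after its values were seen, probes were called in opposite directions (-0.55 and 0.14).

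Against WT over both days, 4 members differed in MMTR KD (limma adjusted p under 0.05, 2 arrays against 2 with the spread shared over the lines). Higher was 1 member, Zfp809, against 2.30% of all genes, and lower were 3, Zfp869, Zfp1 and Zfp330, against 2.04%. No member passed in MMTR-F, MMTR-C or MMTR-N, in which 0.0319%, 0.0106% and 0.0957% of all genes were higher and 0.0106%, 0.0213% and 0.0319% lower. At an unadjusted p under 0.05 there were 8 higher and 19 lower members in MMTR-F (9.02% and 8.25% of all genes), 4 and 8 in MMTR-C (5.60% and 4.58%), 8 and 19 in MMTR-N (9.37% and 7.90%) and 13 and 21 in MMTR KD (12.5% and 10.9%). Zfp131 passed in MMTR-F under median scaling (adjusted p = 0.049) and without the detection filter (adjusted p = 0.027). Other genes of its chromosome were lower in MMTR-F as well, as given below.

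Zfp809 had 9.46 at d3 and 9.55 at d0 in MMTR KD, against 9.03 and 9.05 in WT. The difference was 0.47 (limma adjusted p = 0.035). MMTR-C lay above WT too, by 0.35 at d3 and 0.33 at d0, and did not pass (adjusted p = 0.39). MMTR-F and MMTR-N lay from 9.02 to 9.19. The call in MMTR KD was lost when the MMTR-F arrays (adjusted p = 0.057) or the MMTR-C arrays (adjusted p = 0.063) were left out of the fit.

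The 3 members called lower in MMTR KD all lie on chromosome 8. Zfp869 had 9.23 at d3 and 8.64 at d0 in MMTR KD, against 9.87 and 9.63 in WT (difference -0.82 ± 0.13, SE, adjusted p = 0.024). Its other probes were lower as well, with adjusted p-values of 0.041 and 0.036. Zfp330 had 10.86 and 11.09 in MMTR KD, against 11.57 and 11.55 in WT, and the other lines lay from 11.52 to 11.75 (difference -0.58 ± 0.10, SE, adjusted p = 0.027). Zfp1 had 8.08 and 8.29, against 8.73 and 8.92 in WT (difference -0.63 ± 0.10, SE, adjusted p = 0.026). It was not detected at d3 in MMTR KD, where WT was at least 1.37-fold higher, and under normexp the fitted difference was -1.32.

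All 14 members on chromosome 8 are placed beside these. In MMTR KD 11 of the 14 were lower than WT at d3 and 11 at d0, with median differences of -0.37 and -0.27, and 4 were lower by at least 0.5 on each day. The 196 members on other chromosomes had medians of -0.02 at d3 and -0.00 at d0, and genes outside the family and the chromosome 0.01 and 0.03. The 514 other genes on chromosome 8 were lower in MMTR KD to a like degree, with medians of -0.33 at d3 and -0.31 at d0. Of them 86% were lower at d3 and 84.2% at d0, and 27.2% and 25.7% by at least 0.5. The shift was thus measured over the genes of this chromosome and not only in its Zfp genes. Chromosome 8 was not the only chromosome with a shift from WT. On chromosome 1 the 465 genes outside the family had medians of 0.12 at d3 and 0.29 at d0 in MMTR KD. There MMTR-C had 0.10 and 0.26. In MMTR-F, MMTR-C and MMTR-N the medians of the 14 lay between -0.12 and -0.03.

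Along the chromosome the lower members were not in 1 block. Zfp930, Zfp868, Zfp869 and Zfp866, which are neighbours, differed at d3 by -0.47, -0.23, -0.64 and -0.42 and at d0 by -0.51, -0.75, -0.995 and -0.22. Next came Zfp709 with 0.01 and 0.04, Zfp961 with -0.19 and -0.42 and Zfp827 with 0.14 and -0.17. Beyond Zfp330, Zfp423 had 0.19 and 0.07. Zfp90, Zfp821, Zfp1 and Zfp276, farther on, were lower on both days, while Zfp612 differed by -0.21 at d3 and 0.20 at d0. Zfp709, Zfp827 and Zfp612 were dim, with 8.31 to 8.77 in MMTR KD and WT against detection limits of 8.19 to 8.28. Zfp821 and Zfp1 were dim too and were lower on both days. Whether the detection limit affected these differences was not tested. Zfp423 was brighter at d0 and was not lower. Whether the shift over the chromosome had gaps was not tested. The pattern was looked for with earlier results of these data known and is a description. Copy number was not measured, and the part of any change in the chromosome itself was not tested.

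**Figure D3:**
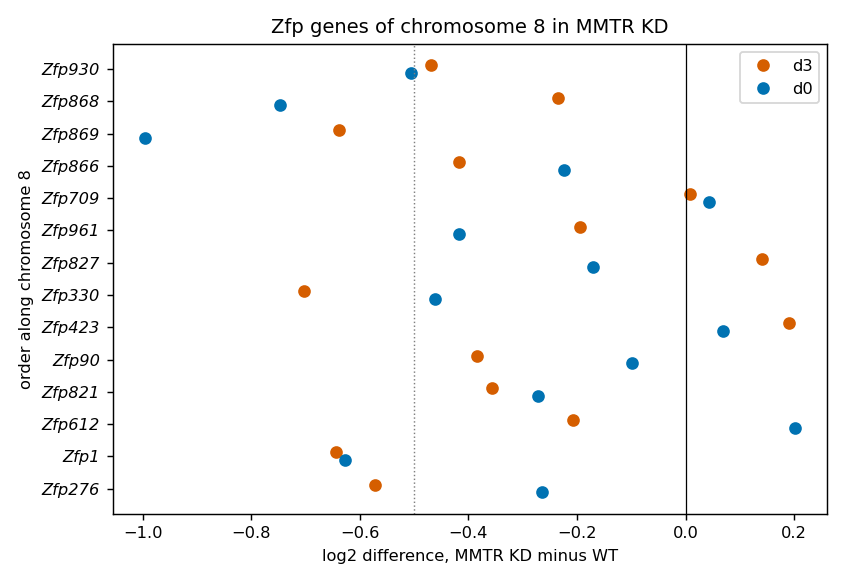
Log2 difference between MMTR KD and WT (horizontal axis) for the 14 Zfp genes of chromosome 8 in their order along it (vertical axis), at d3 in orange and d0 in blue, 1 pair of arrays per point, with a dotted line at -0.5. On each day 11 of the 14 points lie left of 0, and Zfp869 at d0 is the lowest at -0.995.

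On single days a difference of 2 arrays has no test. The share of members at least 0.5 above WT was below that of all genes in every line. Some of these shares rest on few members, as in MMTR-C at d3 (0.476%, against 0.968% of all genes). The share at least 0.5 below WT went both ways. At d3 it was 3.81% in MMTR-F and 4.76% in MMTR-N, above the 3.53% and 3.97% of all genes. In MMTR KD it was 2.86%, below 3.45%. In MMTR KD 3 were higher and 6 lower at d3 (4.55% and 3.45% of all genes), and 3 and 10 at d0 (6.61% and 5.58%). In MMTR-F 9 were higher and 8 lower at d3 (5.41% and 3.53%), and 2 and 7 at d0 (3.67% and 2.84%). In MMTR-C 1 was higher and 1 lower at d3 (0.968% and 0.351%), and 0 and 1 at d0 (3.77% and 2.19%). In MMTR-N 7 were higher and 10 lower at d3 (6.66% and 3.97%), and 2 and 4 at d0 (2.80% and 1.49%).

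Few members kept such a difference on both days. In MMTR KD 0 were higher (1.89% of all genes) and Zfp869 and Zfp1 were lower (1.43%). In MMTR-F 0 were higher (1.44%) and Zfp608 and Zfp131 were lower (0.574%). In MMTR-C there were 0 in either direction (0.436% and 0.170%), and in MMTR-N Zfp655 was higher (1.13%) and 0 were lower (0.383%). Zfp131 had 10.54 at d3 and 10.50 at d0 in MMTR-F, against 11.14 and 11.32 in WT, and was highest in MMTR KD, with 11.56 and 11.64. It lies on chromosome 13, where 313 genes outside the family had medians of -0.19 at d3 and -0.17 at d0 in MMTR-F against WT. Of them 79.2% were lower at d3 and 76% at d0, and 8.63% by at least 0.5 on each day. Of the 16 members on this chromosome 12 were lower at d3 and 13 at d0. Zfp608 in MMTR-F was 0.90 below WT at d3, and at d0, where it was not detected in MMTR-F, WT was at least 1.34-fold higher. Its second, dimmer probe differed from WT in MMTR-F by -0.57 at d3 and by -0.04 at d0. The d0 difference of Zfp608 thus rests on 1 probe. Zfp655 had 11.75 and 11.88 in MMTR-N, against 10.87 and 10.89 in WT, and MMTR-F was high too at d3, with 11.78.

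At d3, 11 members differed from WT by at least 0.5 in 2 or more lines, and in all 11 MMTR-F and MMTR-N were among those lines. They were 5.24% of the members, against 7.36% of all genes. Since every such difference uses the same WT array, the lines are not independent, and the genes were picked after their values were seen. Higher in both MMTR-F and MMTR-N were 7 members, against 3.78% of all genes, and lower in both were 4, against 1.90%. Zfp365 had 10.86, 11.00, 10.72 and 11.29 in MMTR KD and the lines MMTR-F, MMTR-C and MMTR-N, against 10.21 in WT, which lay below all of them. Its second, dimmer probe differed from WT by 0.20, 0.22 and 0.38 in MMTR KD, MMTR-F and MMTR-N. Zfp819 had 10 in MMTR-F and 9.75 in MMTR-N, against 8.97 in WT, with MMTR KD at 8.79 and MMTR-C at 9.10, and Zfp655 had the values given above.

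Zfp941, Zfp710 and Zfp28 were 0.65, 0.79 and 0.60 above WT in MMTR-F and 0.75, 0.68 and 0.67 in MMTR-N. Zfp750, known for its role in epidermal differentiation, was not detected in WT and was at least 1.36-fold higher in MMTR-F and 1.46-fold in MMTR-N. Lower in both lines were Zfp608 (-0.90 in MMTR-F and -0.87 in MMTR-N), Zfp334 (-0.68 and -0.73), Zfp131 (-0.60 and -0.55) and Zfp521 (-0.52 and -0.57). Except for Zfp131 in MMTR KD, these genes lay below WT in the other lines too. The differences in MMTR KD and MMTR-C were -0.48 and -0.14 for Zfp608 and -0.50 and -0.29 for Zfp334. They were 0.42 and -0.25 for Zfp131 and -0.28 and -0.62 for Zfp521. Of the 11, Zfp819, Zfp28, Zfp710 and Zfp750 fell between d3 and d0 over the 5 lines, and Zfp608, Zfp334 and Zfp521 rose. The fall of Zfp710 was that of its brightest probe, while the second differed by 0.04 between the days and did not pass.

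**Figure D4:**
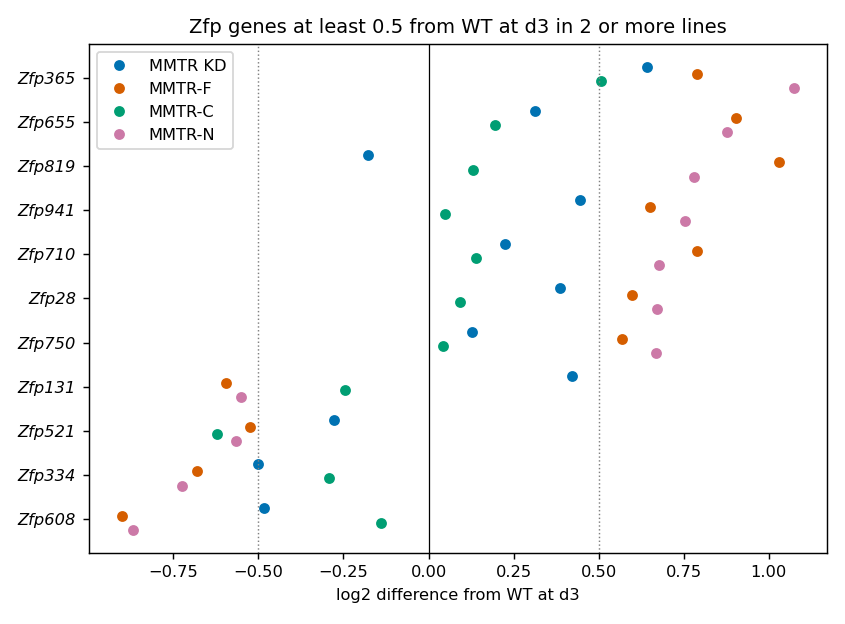
Log2 difference from WT at d3 (horizontal axis) in MMTR KD and the lines MMTR-F, MMTR-C and MMTR-N for the 11 Zfp genes that differed by at least 0.5 in 2 or more lines, with dotted lines at -0.5 and 0.5. Each point is 1 array against the same WT array, and the points of MMTR-F and MMTR-N lie beyond a dotted line on the same side in every gene.

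**Figure D5:**
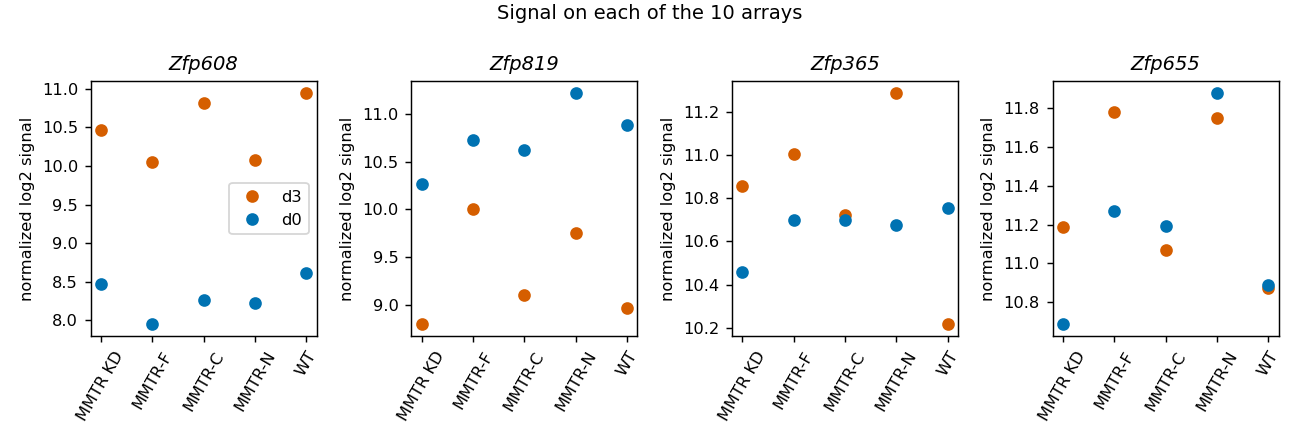
Normalized log2 signal (vertical axis, a scale of its own in each panel) of Zfp608, Zfp819, Zfp365 and Zfp655 on each of the 10 arrays, by line (horizontal axis), with d3 in orange and d0 in blue. Zfp608 is higher and Zfp819 lower at d3 in every line, while the d3 value of Zfp365 lies below d0 only in WT, with 10.21 against 10.75.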

How the data were processed

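Labelled RNA of 10 mESC samples was hybridized to Illumina Mouse WG-6 bead arrays. The authors deposited signal intensity and a detection p-value for 45281 probes, written by BeadStudio 3.2 per the labels, and a table of normalized log2 values, which was used as an alternative. The series text names RMA background correction, while the methods name only log transformation and quantile normalization, which were followed here. Probes detected at a p-value up to 0.05 on 5 or more arrays were kept (17775), named through the supplied platform table (14281 with 1 symbol) and placed with RefSeq (GRCm38.p6). Day and line effects were fitted in R 4.3.3 with limma 3.58.1 on all 10 arrays (line and day as additive terms, 4 residual degrees of freedom with 4.06 from the variance prior, two-sided tests, p-values adjusted by Benjamini-Hochberg across the kept probes, threshold 0.05), and the code was tested on simulated data. The lines served as replicates of the day, so p-values measure the spread between these arrays, and their number limits the precision. Differences between 2 arrays were counted at 0.5 with no test. A fold written as at least sets the bright array or mean against the higher of the detection limit and the dim signal. Promoters and figures were handled with Python 3.11.15, pandas 2.3.3, Biopython 1.88 and matplotlib 3.10.9.

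Named genes were the 10 largest rises and falls with the same sign in 5 lines, members at least 0.5 from WT on both days or called in a line, the role lists, and the members on chromosome 8. The members and lists were chosen with earlier results of these data known. Features of the encoded proteins were planned but not analysed here. Alternatives covered background correction (limma normexp, offset 16, saddle-point fit), scaling, filters, the deposited table, the choice of probe, the model, the threshold and leaving out each line.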

Additional observations from a re-analysis of the deposited data

Results flagged for a closer look

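Zfp365 moved in opposite directions in different lines. Its d3 signal was 0.61 above d0 in MMTR-N (log2 scale) and 0.54 below d0 in WT, with 1 array for each line and day. Its second, dimmer probe differed by 0.05 in MMTR-N and -0.44 in WT, so that the rise in MMTR-N rests on 1 probe. The difference between the lines was not tested.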

How the results depend on the processing

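For the 54 genes followed over the days, 691 of 749 values under the alternatives stayed on their side of the threshold, 27 were weaker, 15 stronger and 16 reversed, and of 194 for 18 pairs of a gene and a line 180 stayed, 4 were weaker, 7 stronger and 3 reversed. All reversed values belonged to differences that had not passed the test. Over the days, median scaling gave -0.065 for Zfp281, -0.018 for Zfp365, 0.024 for Zfp335, -0.026 for Zfp219 and -0.065 for Chd4, and in MMTR KD 0.051 for Zfp827 and 0.14 for Zfp612 (0.015 under normexp). The mean of a gene's probes gave -0.14 for Zfp281, -0.20 for Zfp568 (adjusted p = 0.029), -0.032 for Zfp365 and -0.043 for Chd4, and probes detected on all 10 arrays -0.0087 for Zfp568. Leaving out 1 line gave -0.046 to 0.020 for Zfp809 over the days and -0.064 to 0.099 for Zfp568. The line term pairs the days of a line, and without it 38 members rose and 45 fell. Under median scaling the median change was 0.04 for the members and -0.01 for all genes. Leaving out 1 line gave 38 to 46 rises and 43 to 50 falls, 3 to 4 members in MMTR KD and 0 in each other line. Under normexp background correction Zfp330 and Zfp809 missed the threshold in MMTR KD (limma adjusted p = 0.055 and 0.051), and more members passed 0.5: in MMTR KD 30 at d3 and 33 at d0, in MMTR-F 43 and 23, in MMTR-C 7 and 14 and in MMTR-N 43 and 18. Between d3 and d0 it gave 67 for MMTR KD and 49, 79 and 67 for the lines MMTR-F, MMTR-C and MMTR-N, against 69 for WT, and a chromosome 8 median of -0.42 for MMTR KD at d0. Median scaling called 8 members in MMTR KD and 1 in MMTR-F, and counted 1 at d3 and 3 at d0 in MMTR-C and 12 at d0 in MMTR-N. Without the detection filter 1 was called in MMTR-F. With probes detected on all 10 arrays, 1 was counted in MMTR-C at d3. With the mean of a gene's probes the counts were 5 in MMTR-F at d0 and 1 at d3 and 0 at d0 in MMTR-C. Outside chromosome 8, 1 member was called in MMTR KD and 5 were counted at d3. With a threshold of 1 the counts at d3 and d0 were 0 and 1 in MMTR KD, 1 and 1 in MMTR-F, 0 and 0 in MMTR-C and 1 and 0 in MMTR-N, and between the days 7 in MMTR KD and 4, 7 and 7 in the lines MMTR-F, MMTR-C and MMTR-N, against 11 in WT. The cause of these shifts was not tested beyond the smaller sets of genes or arrays that some alternatives use by construction.

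A single array per condition leaves differences within a day without a test, and fitted changes of some members near the detection limit depended on the background correction (Zfp808 -1.35 under normexp).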
